A study of Mus musculus with 8 samples.

Results

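The transcripts described here are 10 genes known from fat cells, Adipoq, Cfd, Lep, Retn, Car3, Plin1, Cidec, Cidea, Ucp1 and Fabp4, measured in whole hearts of fasted and satiated mice. They were taken by gene symbol, through the RefSeq transcript named for each probe, and are covered by 13 of the 41174 non-control probes on the array, 3 of them for Fabp4 and 2 for Retn. Fasted hearts came from 4 male C57BL/6J mice, 9 weeks of age, that had water but no food for 2 days, and satiated hearts from 4 untreated males of the same strain and age. All mice had been raised on the same standard pellet diet. Each heart was hybridised to 1 single-colour Agilent array. Replicates 1 and 2 of both groups shared slide 1, and replicates 3 and 4 of both groups shared slide 2. The replicates are separate samples in the labels, so a p-value speaks only for the variation among these 8 hearts, and 4 arrays per group limit the precision. The labels do not say how much fat was left on the hearts.

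White fat cells store triglyceride in a droplet coated by perilipin 1 and enlarged by the CIDE proteins, release fatty acids from it in fasting, and secrete hormones such as adiponectin, leptin and resistin. Brown fat cells burn fatty acids and make heat through the uncoupling protein UCP1. Hearts carry fat cells on their surface and in the pericardium, so their RNA reaches whole-heart samples, while Fabp4 is also known from capillary endothelium and carbonic anhydrase III, the product of Car3, also from slow skeletal muscle and liver.

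Signals are given below as a percentage of the array's 75th percentile, so that 100% is the signal that 75% of probes lie under, and levels of different probes are not comparable. Fold changes are fasted over satiated on the log2 scale, with the standard error (SE) of the fit, and adjusted p-values are Benjamini-Hochberg values of limma over all 20213 genes and unnamed probes tested. Between 54.4% and 55.7% of probes were well above background on slide 2 and between 66.7% and 69.0% on slide 1, where the median signal of the negative control spots was 28.5 to 30, against 136 to 150 on slide 2. Mean correlations within a group were 0.974 for fasted replicate 3 and 0.980 to 0.985 for the other 7 hearts. All 14 cardiomyocyte markers were well above background on all 8 arrays, and their summed signal was 331116% to 459409% in fasted hearts and 343682% to 447132% in satiated hearts. Of 11 fast skeletal muscle genes measured 8 were highest in satiated replicate 1, while Ckm, Atp2a1 and Myh4 were highest in other hearts. In that heart Mylpf, the fast regulatory myosin light chain and a gene picked here after its values were seen, was at 995.1%, against 19.7% to 25% in the other 7 hearts.

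Car3 fell in the fasted hearts, and it was the only one of the genes that passed the test. Lep was too dim to enter this test. The other 8 did not pass, and they did not share a direction: fitted changes were negative for Retn, Plin1, Ucp1 and Adipoq and positive for Cidec, Cidea, Cfd and Fabp4. Of the 9 tested, 1 was thus called, lower, where 10.4% of all features tested were called lower and 9.82% higher. In all 20.2% of features were called, 4077 of them, and 32.1%, or 6491, with the replicate number as a block, which called Car3 alone among these genes again (adjusted p = 0.0118). The slide as a block called 35.5% of features, and Car3 alone among these genes (adjusted p = 0.00237). With no filter on dim probes 6.8% were called, among them Car3 (adjusted p = 0.00801). In a whole heart, fewer fat cells and less RNA per fat cell cannot be told apart.

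**Figure D1:**
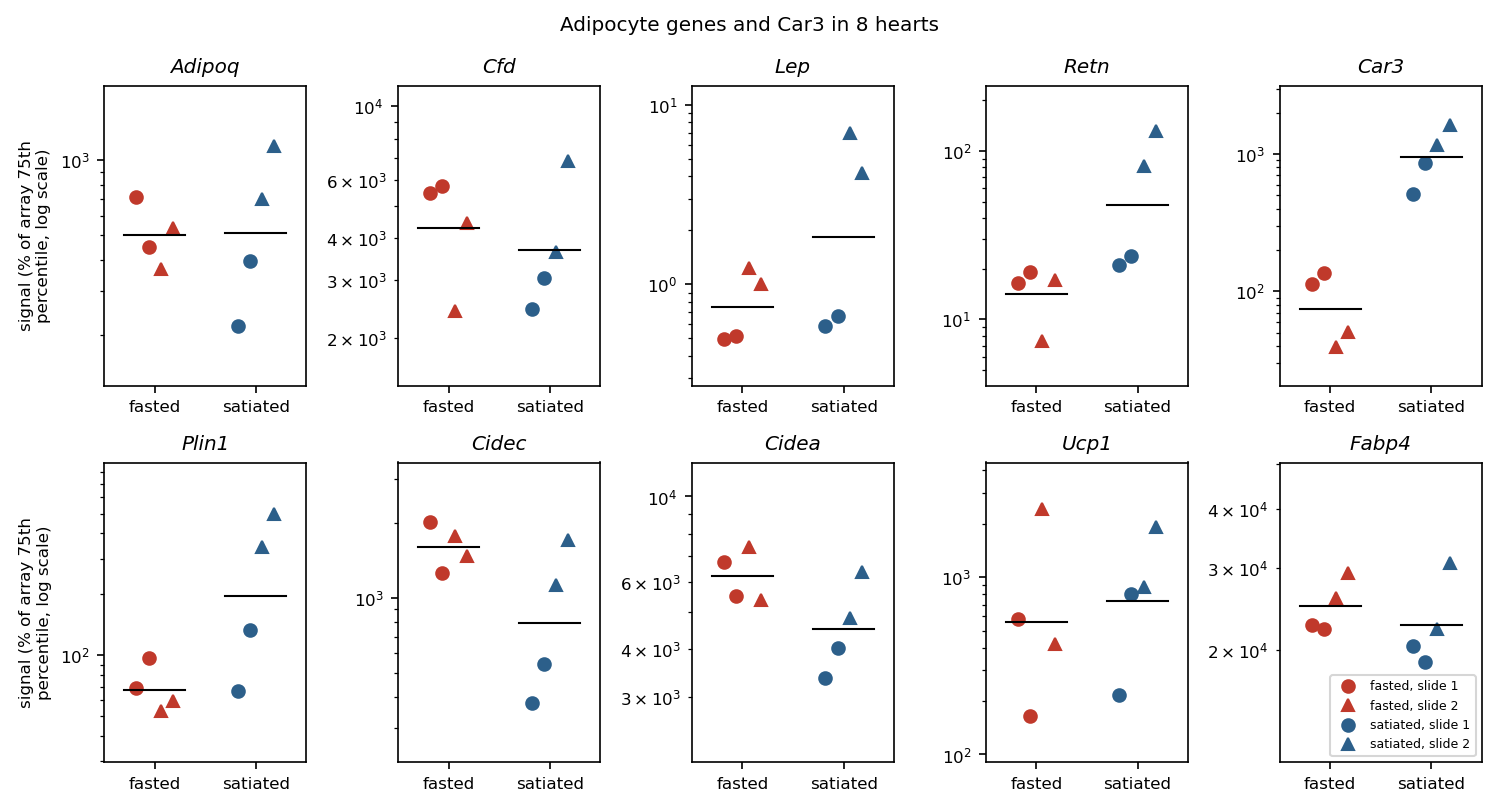
Signal of each gene (percent of the array's 75th percentile, log axis, brightest probe) in the 4 fasted hearts on the left of each panel and the 4 satiated hearts on the right. Circles are hearts on slide 1, triangles hearts on slide 2, and the bar is the geometric mean. The groups are apart for Car3 and, closely, for Retn, and overlap for the other 8.

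Car3 encodes carbonic anhydrase III, a cytosolic enzyme with weak carbonic anhydrase activity that is among the abundant proteins of fat cells. Its signal was 112.8%, 136%, 39.5% and 51% in fasted replicates 1 to 4, against 510.7%, 853.9%, 1156.1% and 1624.8% in satiated replicates 1 to 4. Every fasted heart was below every satiated heart, which held for 27.6% of all features in one direction or the other. The mean was 84.8% ± 46.9 in fasted hearts and 1036% ± 473 in satiated hearts (SD, n = 4 each), and the log2 fold change was -3.67 ± 0.48 (SE), a 12.8-fold decrease (adjusted p = 0.00227). The decrease was present on each slide, with log2 fold changes of -4.93 on slide 2 and -2.41 on slide 1. The call was lost on slide 2 alone (adjusted p = 0.0649) and held on slide 1 alone (adjusted p = 0.029), with 2 hearts of each group in either fit. Before adjustment the limma p of Car3 was smaller on slide 2 (3.47e-05) than on slide 1 (0.000737). Leaving out any single heart gave -3.97 to -3.37. Without satiated replicate 1, the heart with fast skeletal muscle signal, the change was -3.97 (adjusted p = 0.0042), and leaving fasted replicate 3 aside gave -3.37 (adjusted p = 0.0049).

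Other carbonic anhydrases, enzymes that interconvert carbon dioxide and bicarbonate, were set beside Car3. Of 14 others on the array 11 were bright enough to test, 3 rose and 0 fell in limma (1 fell with the replicate number as a block), with a median log2 fold change of 0.18, where the median of all features was 0. Car4, the membrane-anchored enzyme of capillary walls, rose to 199.4%, 268.1%, 248.8% and 237.3% in fasted hearts, against 65.4%, 59.6%, 83.4% and 77.4% in satiated hearts (log2 fold change 1.74 ± 0.15, adjusted p = 0.000561). Car5b, a mitochondrial isoform, rose by 1.47 ± 0.28 (adjusted p = 0.00906) and Car11, a related protein without enzyme activity, by 0.57 ± 0.14 (adjusted p = 0.0225). Markers of slow skeletal muscle, another tissue with Car3, did not pass in limma without a block: Tnnt1, the slow troponin T, had a change of -0.36 ± 0.16 (adjusted p = 0.152). A slide block made Tnnt1 a call, lower in fasted hearts (adjusted p = 0.0216), and blocking on the replicate number likewise gave 1 lower call. Their part in the Car3 change was not tested, and only 2 of the 4 genes of that list on the array were measured. Of 5 liver markers measured 1 rose, Ahsg, a secreted plasma protein (1.18 ± 0.26, adjusted p = 0.0163), with a list median of 1.08. Cyp2e1 (1.13, adjusted p = 0.067), Tat (1.08, adjusted p = 0.0796), Serpina1c (0.17) and Alb (-0.47) did not pass. Apoa1, Ttr and Fgb were too dim to test. Summed liver signal was 1598% to 2274% in fasted hearts and 535% to 1167% in satiated hearts, most of it from Ahsg. The part of liver genes in the Car3 change was not tested.

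Adipoq encodes adiponectin, a hormone made by fat cells, and did not pass the test. Its signal was 715.4%, 447.9%, 367.6% and 537.9% in fasted replicates 1 to 4, against 216.7%, 396.4%, 698.6% and 1142.7% in satiated replicates 1 to 4. The fasted values all lay inside the satiated range. The log2 fold change was -0.03 ± 0.48, with a 95% interval of -1.21 to 1.15 (adjusted p = 0.977). On slide 1 both fasted hearts were above both satiated hearts (0.95), and on slide 2 both were below (-1.01).

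Cfd encodes adipsin, the complement factor D that fat cells secrete. It stood at 5477.6%, 5762.7%, 2419.7% and 4437.9% in fasted replicates 1 to 4 and at 2441.3%, 3041.7%, 3646.3% and 6834.9% in satiated replicates 1 to 4. The groups overlapped throughout and the change was 0.22 ± 0.38 (adjusted p = 0.741). Slide 1 alone gave a call upward (1.04, adjusted p = 0.0357) and slide 2 alone a value of -0.61 (adjusted p = 0.442).

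Lep encodes leptin, the hormone that reports fat stores to the brain. An array was counted if any of the 10 Lep spots was well above background. This held for 0 of 4 arrays of fasted hearts and for 1 of 4 of satiated hearts, that of replicate 3. The signal was 0.496%, 0.514%, 1.24% and 1.01% in fasted replicates 1 to 4, against 0.588%, 0.666%, 6.98% and 4.16% in satiated replicates 1 to 4. No fold is given for leptin at this brightness. Without the filter on dim probes its change was -1.29 ± 0.86 (adjusted p = 0.515).

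Retn encodes resistin, a fat cell hormone in mice. Its brighter probe read 16.5%, 19%, 7.44% and 17.1% in fasted replicates 1 to 4, against 21%, 23.7%, 81.7% and 131.8% in satiated replicates 1 to 4. The groups were apart, but on slide 1 only narrowly, and the change of -1.77 ± 0.62 did not pass (adjusted p = 0.0824). It was -3.2 on slide 2 and -0.33 on slide 1. With normexp background correction it was -1.16, or 2.23-fold in place of 3.41-fold. On the other probe the groups overlapped, with a highest fasted value of 15.6% and a lowest satiated value of 15.2%, and the change was -1.73.

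Plin1 encodes perilipin 1, which coats the droplet of fat cells and holds lipases off it in the fed state. It read 68.7%, 96.8%, 53.1% and 59.9% in fasted replicates 1 to 4, against 66.8%, 132.7%, 340.4% and 498.7% in satiated replicates 1 to 4. Fasted hearts were low throughout, while satiated replicate 1 was as low as they were and the satiated hearts of slide 2 were high. Its log2 fold change of -1.54 ± 0.59 did not pass (adjusted p = 0.103). Slide 2 gave -2.87 and slide 1 gave -0.21. Without satiated replicate 1 it was -2.06 and passed (adjusted p = 0.0246).

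Cidec encodes the droplet protein FSP27, which lets lipid pass from smaller to larger droplets. It read 2014.6%, 1261.8%, 1772.6% and 1471.2% in fasted replicates 1 to 4, against 380.4%, 541.6%, 1130.5% and 1708.4% in satiated replicates 1 to 4. The fasted hearts were all high, and satiated replicate 4 overlapped them. The change of 1.01 ± 0.45 did not pass (adjusted p = 0.15). It passed on slide 1 alone (1.81, adjusted p = 0.0422), with 0.22 on slide 2. Cidea, a related droplet protein typical of brown fat, averaged 6247% ± 968 in fasted hearts and 4641% ± 1284 in satiated hearts (SD, n = 4 each), a change of 0.46 ± 0.21 (adjusted p = 0.172).

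Ucp1, the heat-producing uncoupling protein, varied more than any other of the genes within fasted hearts. It read 579.8%, 165.1%, 2421.5% and 417.8% in fasted replicates 1 to 4, against 215.8%, 807%, 884.4% and 1921.8% in satiated replicates 1 to 4. The highest fasted heart was 14.7-fold above the lowest, and the highest satiated heart 8.91-fold above the lowest. The change was -0.40 ± 0.88 (adjusted p = 0.802). It was -1.11 without fasted replicate 3 and 0.18 without fasted replicate 2, neither of which passed.

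Fabp4, the fatty acid binding protein of fat cells and capillary endothelium, differed least between hearts. Its brightest probe averaged 24988% ± 3289 in fasted hearts and 23052% ± 5290 in satiated hearts (SD, n = 4 each). The 3 probes gave log2 fold changes of 0.13, 0.20 and 0.15, and for the brightest the 95% interval was -0.31 to 0.57 (adjusted p = 0.659). All 16 capillary endothelial markers were well above background on every array, and 2 of them rose, the fatty acid uptake genes Cd36 (0.71 ± 0.18, adjusted p = 0.0289) and Gpihbp1 (0.72 ± 0.22, adjusted p = 0.0498). The median of the list was 0.11. The summed signal was 55195% to 72598% in fasted hearts and 46967% to 50596% in satiated hearts, a sum in which the bright Lpl, lipoprotein lipase (0.32, adjusted p = 0.241), read 26626.5% to 41081.3% in fasted hearts and 21540.4% to 28886.7% in satiated hearts. Its part in the Fabp4 level was not tested.

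**Figure D2:**
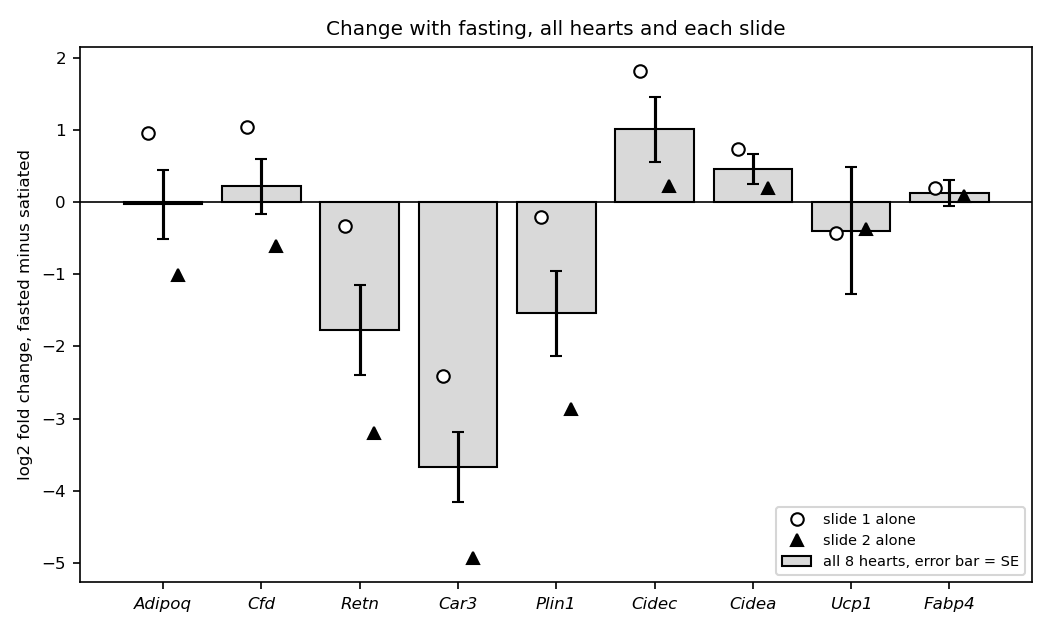
Log2 fold change (fasted minus satiated) of the 9 genes tested, as bars with the SE for all 8 hearts. Open circles are slide 1 alone and filled triangles slide 2 alone, with 2 hearts per group each. Slide 2 lies below slide 1 for 8 genes, most for Retn, Plin1 and Car3 and least for Fabp4, and level with it for Ucp1.

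The signed log2 fold change of several of these genes was thus lower on slide 2 than on slide 1. For Car3, Retn and Plin1 this was a larger decrease on slide 2, and for Adipoq and Cfd a change of sign. The difference, as a slide by fasting interaction, was -2.87 ± 0.59 for Retn, -2.66 ± 0.52 for Plin1, -2.52 ± 0.43 for Car3 and -1.96 ± 0.59 for Adipoq on the log2 scale. None passed after adjustment, nor did any of the 20213 features (0%). At an unadjusted p under 0.05, 6 of the 9 genes had an interaction, all 6 downward on slide 2, against 2.56% of all features in either direction and 1.39% in that one. These 6 genes moved together between hearts and are not separate observations. The satiated hearts of slide 2 were above those of slide 1 by 4.65-fold for Retn, 4.38-fold for Plin1, 3.05-fold for Adipoq and 2.08-fold for Car3. In fasted hearts, slide 2 over slide 1 was 0.636 for Retn, 0.692 for Plin1, 0.786 for Adipoq and 0.362 for Car3. Each slide held different mice, so slide and mice cannot be told apart here.

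Several of the genes ran in parallel between hearts that shared a group and a slide. All 9 were higher in satiated replicate 4 than in 3, and 8 of 9 were higher in satiated replicate 2 than in 1, Fabp4 being the exception. The fasted pairs were mixed. In fasted replicate 4 over 3, 6 of 9 were higher, with Ucp1, Cidea and Cidec lower, and in fasted replicate 2 over 1 only Cfd, Car3, Plin1 and Retn were higher, or 4 of 9. Each gene was also set against Adipoq of the same heart, a comparison in which the scaling of the array cancels.

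Relative to Adipoq, the signals of Car3, Retn and Plin1 lay lower and that of Cidec higher in every fasted heart than in every satiated heart. On the same scale 1.03% of all features were apart downward and 0.896% upward, against 27.6% in either direction without centring. Centring adds the spread of Adipoq to every feature. These 4 genes moved with Adipoq between hearts (r of 0.88 to 0.93 with the means of group and slide taken out). The shares are thus low partly by construction and do not measure how rare such a separation is. The log2 ratio of Car3 to Adipoq was -3.40 to -1.72 in fasted hearts and 0.51 to 1.24 in satiated hearts, a difference of -3.64 ± 0.41 (SE) or 12.5-fold. The differences were -1.74 ± 0.33 for Retn, -1.51 ± 0.30 for Plin1 and 1.04 ± 0.21 for Cidec. Each of these 4 reached p = 0.0286 in a two-sided exact permutation test, the smallest that 4 hearts against 4 allow, and 9 genes were tested in this way. With normexp background correction the Retn difference was -1.11, or 2.15-fold in place of 3.34-fold. For Plin1 the p was 0.0571 by the same exact test without satiated replicate 2, 3 or 4. The same 4 directions held on each slide, with -3.93 and -3.36 for Car3, -2.20 and -1.28 for Retn, -1.86 and -1.16 for Plin1 and 1.22 and 0.86 for Cidec on slides 2 and 1. In a limma fit over all features with each array centred on Adipoq, Car3 passed (adjusted p = 2.33e-05), as did 0.242% of features downward and 0.534% upward. Retn (adjusted p = 0.383), Plin1 (adjusted p = 0.663) and Cidec (adjusted p = 1) did not pass. Centring puts the variation of Adipoq between hearts into every feature, and each of these genes had an SE of 0.66 in that fit. The adjusted p of Car3 there is therefore not stronger evidence than the 0.00227 of the uncentred limma fit. The differences of Cfd, Fabp4, Cidea, Ucp1 and Lep from Adipoq had exact permutation p-values of 0.171 to 0.714.

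**Figure D3:**
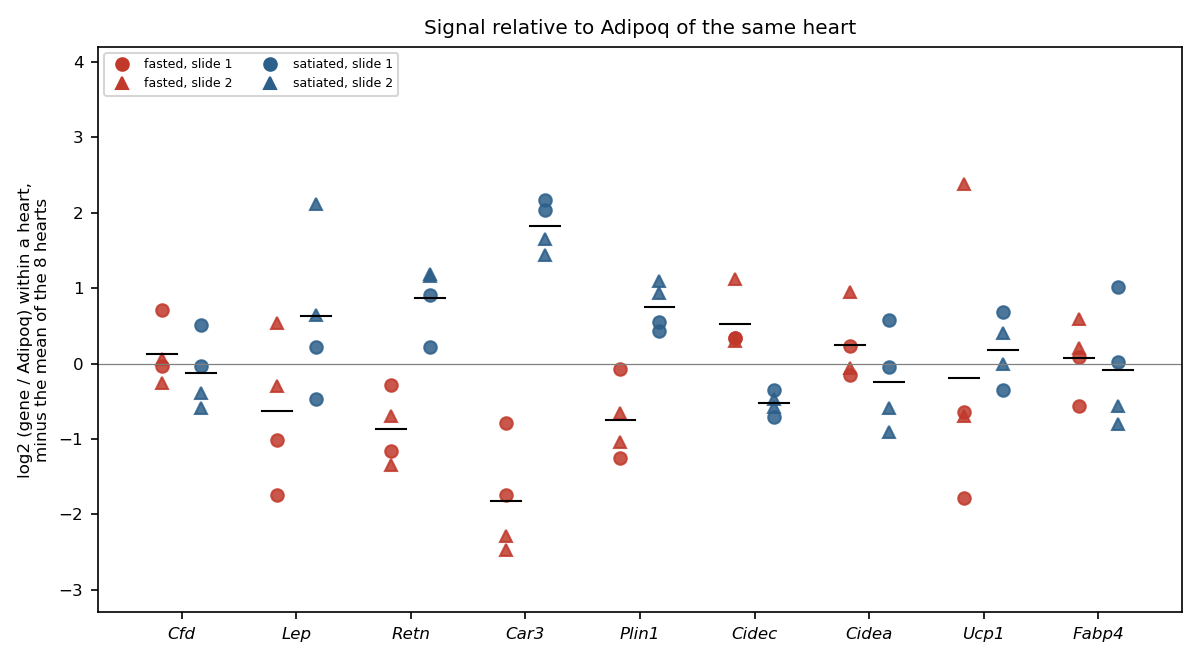
Log2 ratio of each gene to Adipoq within a heart, centred on the mean of the 8 hearts, with fasted hearts on the left of each pair and satiated hearts on the right. Circles are slide 1, triangles slide 2 and bars group means. The groups are apart for Retn, Car3, Plin1 and Cidec and overlap for the other 5 genes.

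The start sites of Retn, Plin1 and Cidec, whose ratios to Adipoq did not overlap between the groups but did not pass in that fit, are shown beside that of Adipoq. Cidec has 2 windows, and the one shown holds a match. Windows from 250 bases before to 50 after the start come from RefSeq on GRCm38.p6. They were used here for 7 of the 10 genes, all but Car3, Fabp4 and Cidea. That does not mean that these lack a start site. Capitals mark TTGCNNAA, a form of the C/EBP recognition sequence, searched on both strands.
Retn, chr8:3655520-3655819, plus strand: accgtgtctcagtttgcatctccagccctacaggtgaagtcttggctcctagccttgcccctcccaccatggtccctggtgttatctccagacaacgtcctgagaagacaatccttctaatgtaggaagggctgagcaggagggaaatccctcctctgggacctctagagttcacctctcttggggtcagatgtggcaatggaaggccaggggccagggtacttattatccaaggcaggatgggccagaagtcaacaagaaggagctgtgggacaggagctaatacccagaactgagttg
Plin1, chr7:79732727-79733026, minus strand: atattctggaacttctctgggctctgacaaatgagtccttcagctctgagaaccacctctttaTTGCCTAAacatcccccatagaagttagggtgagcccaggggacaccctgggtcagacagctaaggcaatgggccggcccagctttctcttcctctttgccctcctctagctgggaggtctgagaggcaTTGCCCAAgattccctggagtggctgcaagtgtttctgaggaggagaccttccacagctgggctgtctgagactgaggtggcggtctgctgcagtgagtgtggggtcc
Cidec, chr6:113434715-113435014, minus strand: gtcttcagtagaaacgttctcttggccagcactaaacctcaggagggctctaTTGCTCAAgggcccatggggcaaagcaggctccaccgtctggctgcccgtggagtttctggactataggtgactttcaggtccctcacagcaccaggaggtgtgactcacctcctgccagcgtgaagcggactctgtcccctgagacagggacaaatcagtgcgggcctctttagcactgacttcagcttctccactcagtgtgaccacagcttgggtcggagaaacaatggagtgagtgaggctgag
Adipoq, chr16:23146286-23146585, plus strand: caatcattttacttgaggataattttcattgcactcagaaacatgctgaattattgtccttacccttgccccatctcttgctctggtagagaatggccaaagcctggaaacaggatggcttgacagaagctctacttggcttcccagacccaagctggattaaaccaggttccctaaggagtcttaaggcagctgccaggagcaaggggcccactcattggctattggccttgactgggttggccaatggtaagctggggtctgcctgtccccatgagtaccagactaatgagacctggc
Plin1 held 2 such matches, this Cidec window and the Lep window 1 each, and Retn and Adipoq none, whereas 10.8% of all 32851 promoter windows held at least 1. A match is a description of letters, and its absence says nothing of binding elsewhere.

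Other genes typical of white fat cells showed no common direction. Of 20 on the array 19 were measured, 4 rose and 2 fell, and the median of their log2 fold changes was -0.12 (0.20 for slide 1 alone, -0.52 for slide 2 alone). The retinol saturase Retsat rose (0.91 ± 0.13, adjusted p = 0.00281), as did Pparg, the nuclear receptor that drives fat cell formation (0.77 ± 0.14, adjusted p = 0.00687), which read 684.1%, 565.3%, 527.9% and 493% in fasted replicates 1 to 4, against 360.5%, 303.5%, 321% and 340.9% in satiated replicates 1 to 4. Mest, an imprinted gene that marks fat tissue growth in mice, fell (-1.80 ± 0.26, adjusted p = 0.00314). With the replicate number as a block 5 fell instead of 2. Cebpa, the factor that acts with Pparg, had a change of 0.10 ± 0.43 (adjusted p = 0.901). Adig, a fat cell gene, was not well above background on any array.

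Genes of the droplet coat and of lipolysis moved in both directions. Of 14 measured, 6 rose and 4 fell, with a median of 0.52. Lipe and Plin4 are counted here and also among the white fat cell genes that rose. Pnpla2, the lipase that starts triglyceride breakdown, rose (1.44 ± 0.14, adjusted p = 0.000705), its inhibitor G0s2 fell (-1.61 ± 0.19, adjusted p = 0.00158), and the widely expressed coat protein Plin2 rose (1.42 ± 0.19, adjusted p = 0.00255). In the list for fatty acid and triglyceride synthesis 1 of 17 genes fell, with a median of -0.18. That gene was the insulin-responsive glucose transporter Slc2a4 (-0.67 ± 0.15, adjusted p = 0.018), not a synthesis enzyme. With the replicate number as a block, 1 gene of this list rose and 3 fell.

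Brown fat genes other than Ucp1 and Cidea had 0 called by limma among 10 measured (median -0.02), 2 at an unadjusted p under 0.05, and 2 higher with the replicate number as a block. The member with the smallest p was Elovl3, a fatty acid elongase of brown fat (1.48 ± 0.49, adjusted p = 0.0668). It read 4.87%, 4.52%, 10.2% and 1.79% in fasted replicates 1 to 4, against 1.22%, 2.54%, 1.34% and 1.58% in satiated replicates 1 to 4, and was well above background on 3 of 4 fasted and 1 of 4 satiated arrays. Zic1, a transcription factor of brown fat, was not well above background on any array, and Otop1 and Lhx8 were on 3 of 8 each. Markers of fat cell precursors gave 0 higher and 2 lower of 9, with a median of 0.03. The 2 were the sialomucin Cd34 (-0.73 ± 0.17, adjusted p = 0.0205) and Pi16 (-0.85 ± 0.22, adjusted p = 0.0311). The summed signal of the list was 3412% to 4420% in fasted hearts and 5101% to 5936% in satiated hearts. Most of that sum came from Cd34 and Pi16, so it is not separate from their change. Among 11 fibroblast markers 1 rose and 6 fell, with a median of -0.63. Those that fell were led by the matrix proteins Lum (-1.48 ± 0.17, adjusted p = 0.00137) and Postn (-1.12 ± 0.15, adjusted p = 0.00253) and by the collagen Col3a1 (-2.56 ± 0.40, adjusted p = 0.00412). The summed fibroblast signal overlapped, at 52057% to 65881% in fasted hearts and 51329% to 57533% in satiated hearts. The part of these cell types in the levels of the fat cell genes was not tested.

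Receptors of the fat cell hormones were present in the hearts. Adipor2, a receptor of adiponectin, rose (0.74 ± 0.16, adjusted p = 0.0151), and Cdh13, the T-cadherin that binds adiponectin on muscle and vessel cells, fell (-0.78 ± 0.12, adjusted p = 0.0039). Cdh13 read 1310.9%, 1491.3%, 1686% and 1493.9% in fasted replicates 1 to 4, against 2655.2%, 2336.2%, 2717% and 2545.2% in satiated replicates 1 to 4. Adipor1 (0.38 ± 0.13, adjusted p = 0.0708) and the leptin receptor gene Lepr (0.18 ± 0.27, adjusted p = 0.708) did not pass. In the whole list of 15 secreted products and receptors measured, 4 rose and 3 fell, with a median of 0.18. Among those that rose were Lcn2, lipocalin 2 (adjusted p = 5.86e-05), and Retnlg, a resistin-like gene known from neutrophils (adjusted p = 0.000571). Lcn2 read 131.7% to 182.3% in fasted hearts and 4.23% to 8.09% in satiated hearts, and was well above background on 4 of 4 fasted and 2 of 4 satiated arrays. Retnlg read 16.2% to 40.9% in fasted hearts and 1.2% to 2.12% in satiated hearts, and was well above background on 4 of 4 fasted and 1 of 4 satiated arrays. Both were thus kept mainly through the fasted hearts, and the size of their change is uncertain. The list of transcription factors of fat cell formation gave 2 higher and none lower of 14, Pparg and Cebpd (1.21 ± 0.24, adjusted p = 0.0104). With the replicate number as a block 6 were higher and 1 lower. Pparg and Cebpa are also in the list of white fat cell genes, so the rise of Pparg is counted in both. Of 4 measured genes for other fatty acid binding proteins 1 fell, Fabp12 (-0.82 ± 0.15, adjusted p = 0.0077), which was well above background on 4 of 8 arrays.

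**Figure D4:**
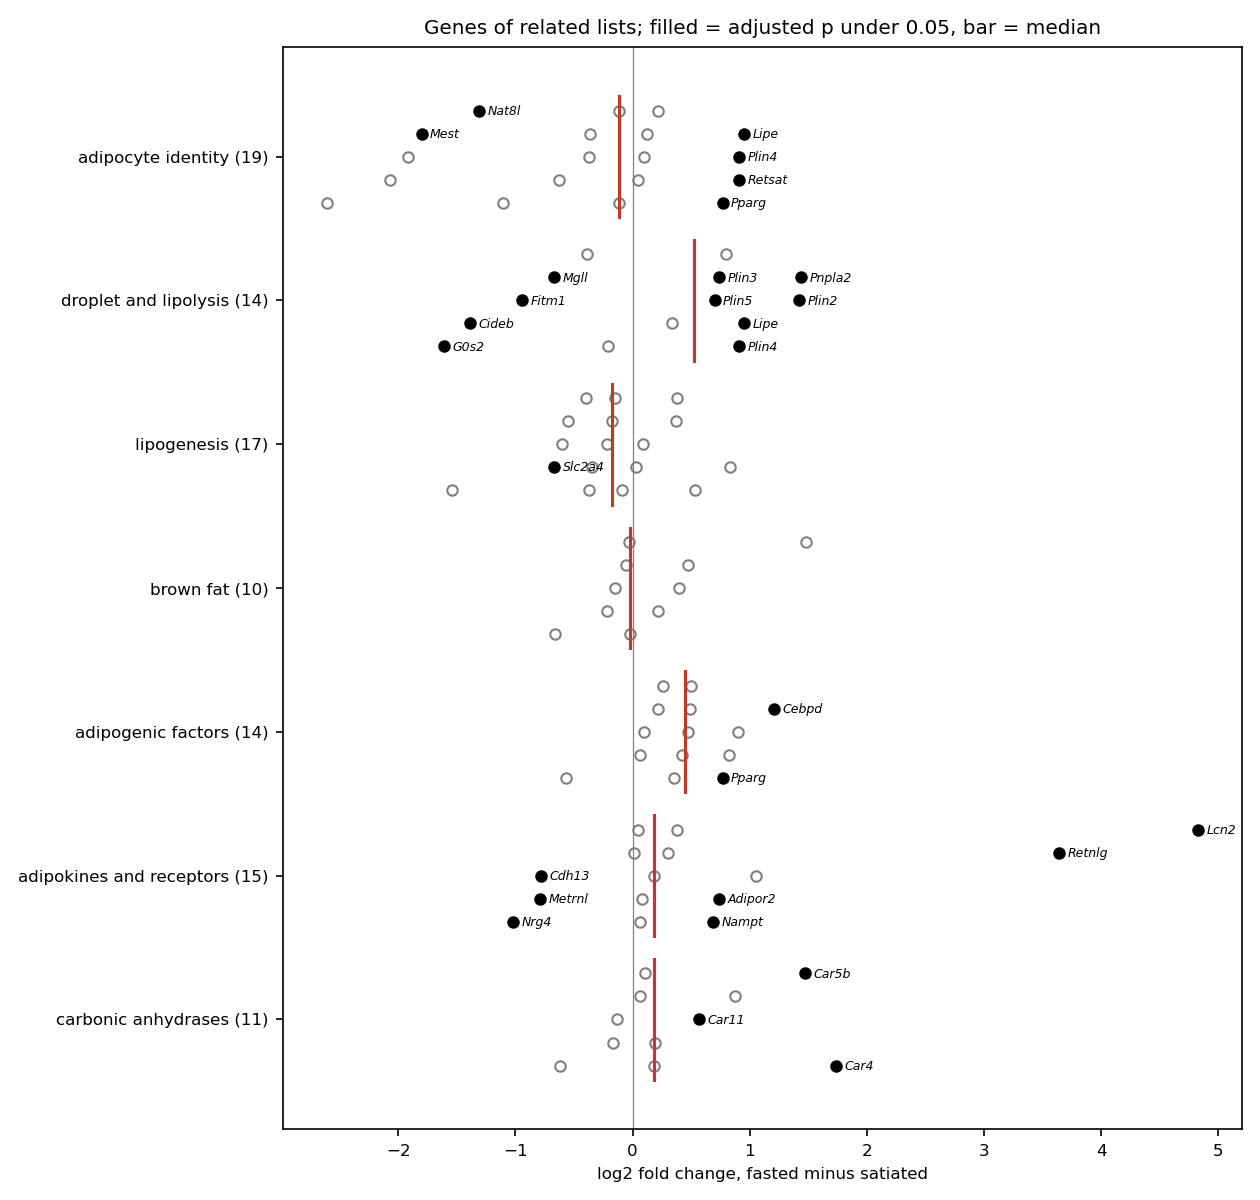
Log2 fold change (fasted minus satiated) of each measured gene in 7 related lists, with the number measured in brackets. Filled points passed at an adjusted p under 0.05 and carry their names, open points did not, and red bars are medians. Called genes lie on both sides of 0 in the adipocyte identity, droplet and adipokine lists.

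The remaining marker lists were checked for other tissue in the samples. Mesothelial genes gave 3 higher and none lower of 9 measured, the keratins Krt18 (1.16 ± 0.12, adjusted p = 0.00108) and Krt8 (0.88 ± 0.19, adjusted p = 0.0159) and the uroplakin Upk1b (1.02 ± 0.21, adjusted p = 0.0131). Their list had a summed signal of 1095% to 1483% in fasted hearts and 569% to 944% in satiated hearts. Msln, the brightest gene in that sum, did not pass (0.71 ± 0.25, adjusted p = 0.0834). Nor did Krt19 (0.62), Bnc1 (0.39), Wt1 (0.18), Upk3b (0.05) and Lrrn4 (-0.03). Whether the hearts differed in mesothelium was not tested. Single genes passed in the cardiomyocyte list (Myl7, -0.58), the macrophage list (Cd14, 0.80), the lymphocyte list (Ms4a1, 1.55) and the nerve and Schwann cell list (S100b, -0.96), and Cspg4 (-0.85) and Acta2 (-0.50) fell among 9 smooth muscle and pericyte genes. In the cardiomyocyte list 3 genes fell with the replicate number as a block. With the slide as a block 4 of them fell, as with quantile normalization of the arrays. Of 11 measured fast skeletal muscle genes 0 passed in limma and 0 had an unadjusted p under 0.05, the smallest p being that of Ckm, muscle creatine kinase (-0.55 ± 0.34, adjusted p = 0.302), and 2 fell with the replicate number as a block.

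Genes whose signal followed Adipoq from heart to heart were sought after the means of group and slide had been taken out. Among all named genes outside the list the 8 with the highest Pearson's r to Adipoq, over 8 hearts with 5 residual degrees of freedom, were Car13, 4931406C07Rik, Slc25a35, Aacs, Hp, Cxcl9, Car5b and Neto2, with r of 0.962 to 0.982. For Car3 they were Spred2, Plac8, Aoc3, Aldh1a7, Ghdc, Prtg, Acvr1c and Glb1l2, with r of 0.969 to 0.992. Aoc3 encodes an amine oxidase of fat cells and vessels, and Acvr1c an activin-type receptor of fat cells. What the other genes of the 2 groups encode is not described here. Acvr1c was dim, at 1.97% to 13.7% over the 8 hearts, and well above background on 2 of 4 fasted arrays. These correlations describe the 8 hearts, which share 2 slides, and were picked as the highest.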

How the data were processed

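RNA of 8 hearts was measured on single-colour Agilent arrays. Per the file headers, Feature Extraction 10.5.1.1 (slide 1) and 10.7.3.1 (slide 2) made the deposited intensity values, with background subtracted, and the submitters' processing notes name version 9.1. The authors also deposited a table of linear ratio values: 99.8% lay within 0.01 log2 of 1 factor per array from the scanner values, column medians were 0.887, 0.86, 1.02 and 0.96 for fasted and 0.876, 0.901, 0.954 and 0.98 for satiated replicates 1 to 4, and its divisor and centring are not given in the sources used here.

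From these, log2 of the processed signal minus each array's 75th percentile was tested with limma 3.58.1 in R 4.3.3, fasted against satiated. Control spots (1639) and outlier spots were left out, and no spot was saturated. A probe was kept if 4 or more of the 8 arrays read it well above background, and each symbol was taken by its brightest probe. RefSeq accessions named 26682 of 41174 probes. Normexp as an alternative used median spot signals, because mean signals were not analysed here. Fits were tested on simulated data. Ratios to Adipoq were compared by exact permutation over 70 splits.

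The members and the gene lists were chosen with earlier results of these data known. From each list up to 3 called genes with the smallest p are named, or the gene with the smallest p where none was called, besides Adipor1, Adipor2, Cdh13, Lepr, Pparg and Cebpa. Same-numbered hearts share a slide per the headers and deviated together, with correlations of 0.438, 0.474, 0.331 and 0.493 for replicates 1 to 4. On slide 1, though, fasted replicate 1 correlated best with satiated replicate 2 and fasted replicate 2 with satiated replicate 1, so there the hearts may share no more than the slide.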

Additional observations from a re-analysis of the deposited data

Results flagged for a closer look

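Fasted replicate 3 stood apart from the other fasted hearts for resistin. Its gap to the nearest fasted heart was 0.849 of the group's log2 range for the brighter Retn probe and 0.93 for the other, both above Dixon's 95% critical value for 4 samples. These were 2 of 26 sets of a group and a probe that were checked, and chance alone gives about 1 in 20. Both flags are of the same gene in the same hearts and are not separate observations. The other probe was well above background on 3 of 4 fasted arrays and read 5.53% in fasted replicate 3. Without this heart the Retn change was -1.46 (adjusted p = 0.178 in limma).

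Adipoq had opposite orders of the groups on the slides, higher in both fasted hearts than in both satiated hearts on slide 1 and lower in both on slide 2. The interaction was -1.96 on the log2 scale (limma adjusted p = 1).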

How the results depend on the processing

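Car3 kept its direction in all 15 other ways of processing the arrays and in every fit without 1 heart, from -4.93 to -2.41, and lost its call only on slide 2 alone, where 0 members were lower and 1 gene was called in all. Against 4077 genes called, there were 7180 with the slide as a block, 6491 with the replicate block, 2225 with no filter on dim probes, 1881 on slide 1 alone and 2496 to 3691 without 1 heart. The replicate block changed no call among the 9 tested members. On slide 1 alone 2 members were higher, Cfd and Cidec, and without 1 heart 1 to 2 were lower, the added gene being Plin1 without satiated replicate 1. Adipoq reversed to 0.95 on slide 1 and ranged from -0.44 to 0.36 without 1 heart, Cfd reversed to -0.61 on slide 2, and Ucp1 ranged from -1.11 to 0.18 without 1 heart. Relative to Adipoq, Fabp4 was -0.76 and Cidea -0.22 on slide 1 and Ucp1 0.63 on slide 2, while without 1 heart Fabp4 ranged from -0.08 to 0.53 and Ucp1 from -1.23 to 0.16. The slide alone fits hold fewer samples. Otherwise the cause was not tested. The slide by fasting interaction and the limma fit centred on Adipoq were chosen after seeing the data. Higher background on slide 2 limits dim probes such as Lep.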
